A study of Schizosaccharomyces pombe with 15 samples.

Results

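Of the 1526 Orc1 peaks deposited for fission yeast (Schizosaccharomyces pombe), 966 overlapped no peak of the transcription factors Atf1, Pcr1 or Deb1. That is 63.3% of the list, with an exact Clopper-Pearson 95% interval of 60.8% to 65.7% that covers counting error only. The members were chosen by the intervals of the deposited lists: an Orc1 peak belongs to them if not even 1 bp of it is shared with any of the 1995 Atf1, 1567 Pcr1 or 351 Deb1 peaks. They are called TF-free Orc1 peaks here, and the other 560 are called TF-overlapping. Because the intervals and the strength of a peak both come from the lists that the choice used, Orc1 fold, q-value, width and distance to the other lists are given as a description. The labels give no sample its own list, so each peak has 1 value, peaks are not replicates, and no test was made between the sets.

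The lists come from chromatin immunoprecipitation followed by sequencing with an antibody against the FLAG tag, in 15 samples of 8 groups. Orc1 carried 5 copies of FLAG (genotype orc1::5xFLAG-orc1-kan) and was precipitated in 2 samples, beside 2 inputs of the same strain. Deb1 carried 3 copies (deb1-3xFLAG-hph), with 2 precipitations and 2 inputs. Atf1 and Pcr1 carried 3 copies (atf1-3xFLAG-hph and pcr1-3xFLAG-hph), with 2 precipitations each, and 2 further Atf1 precipitations came from a strain with s1∆s2∆ in addition. In the Atf1 and Pcr1 strains, s1∆s2∆ included, the cenH element of the mating-type region was replaced (CenH∆::9xtetO-ura4), while the Deb1 and Orc1 strains and the untagged strain, which gave 1 precipitation, are not labelled with this change. All strains shared h90 ade6-M210 leu1-32 ura4-D18. The cells grew in rich medium at 32 °C, were held at 18 °C for 2 hours and were fixed at 18 °C for 30 min, so every list describes cells shifted to the cold. The labels name the untagged sample with the Atf1 list and the inputs with the Deb1 and Orc1 lists, so an absent Atf1 peak and an absent Deb1 peak were judged against different kinds of control.

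Orc1 belongs to the origin recognition complex, which sits on the chromosomes at origins and loads the replicative helicase there before DNA synthesis starts. Fission yeast origins share no fixed consensus sequence. The Orc4 subunit of this yeast has an extension of AT-hooks that bind AT-rich DNA, and origins are known to lie in long AT-rich stretches between genes. Atf1 and Pcr1 are bZIP proteins that bind the ATF/CRE element as a heterodimer, and Deb1 is a DNA-binding protein. In heterochromatin at the mating-type locus, Atf1 and Pcr1 are known to act beside the RNA interference pathway.

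Sequence around the summit of the strongest TF-free Orc1 peak of chromosomes 1 and 3 in a convergent gap, in a divergent gap, in coding sequence and at a tRNA gene is shown to let the composition be read directly. The stretches are 300 bases each, plus strand, written 5′ to 3′, from the RefSeq genome of assembly ASM294v3, with runs of at least 6 A or 6 T in capitals. The last stretch is a TF-overlapping peak, shown as a contrast and picked because it holds the ATF/CRE core TGACGT. Within 100 bp of the summit 7.74% of TF-overlapping peaks hold this core, so the stretch is not typical of them. Its capitals mark the core alone, and its runs of 6 A are left in lower case. The summit of every stretch lies near its middle.
Convergent gap between SPAC750.01 and SPAC750.02C, chr1:5557375-5557674: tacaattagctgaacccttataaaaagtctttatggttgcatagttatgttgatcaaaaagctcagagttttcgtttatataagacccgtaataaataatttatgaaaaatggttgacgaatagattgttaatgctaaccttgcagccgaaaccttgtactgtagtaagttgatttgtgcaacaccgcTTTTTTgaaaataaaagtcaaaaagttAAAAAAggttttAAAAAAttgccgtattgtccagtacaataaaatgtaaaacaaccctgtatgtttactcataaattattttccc
Divergent gap between fap2 and ssd2, chr1:1027122-1027421: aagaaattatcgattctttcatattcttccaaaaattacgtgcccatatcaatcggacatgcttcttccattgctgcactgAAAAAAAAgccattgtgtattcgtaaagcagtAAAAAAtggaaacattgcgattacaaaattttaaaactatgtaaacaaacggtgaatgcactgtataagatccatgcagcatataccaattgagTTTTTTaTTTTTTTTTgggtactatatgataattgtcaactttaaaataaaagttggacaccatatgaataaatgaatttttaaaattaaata
Summit in the coding sequence of SPAC56F8.12, chr1:1147797-1148096: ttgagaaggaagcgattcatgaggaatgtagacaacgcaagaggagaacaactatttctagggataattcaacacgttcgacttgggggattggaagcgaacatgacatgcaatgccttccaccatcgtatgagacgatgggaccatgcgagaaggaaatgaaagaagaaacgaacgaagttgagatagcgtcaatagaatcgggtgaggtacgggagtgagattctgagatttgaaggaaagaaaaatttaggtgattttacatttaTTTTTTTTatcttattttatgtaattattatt
Proline tRNA gene beside bmt2, chr1:365030-365329: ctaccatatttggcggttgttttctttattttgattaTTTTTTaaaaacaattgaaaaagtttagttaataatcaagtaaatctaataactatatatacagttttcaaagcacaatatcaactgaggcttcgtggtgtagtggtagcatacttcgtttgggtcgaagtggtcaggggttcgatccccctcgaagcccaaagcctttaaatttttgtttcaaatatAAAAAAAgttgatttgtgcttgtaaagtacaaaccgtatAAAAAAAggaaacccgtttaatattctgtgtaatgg
TF-overlapping peak near hry1, chr1:5501984-5502283: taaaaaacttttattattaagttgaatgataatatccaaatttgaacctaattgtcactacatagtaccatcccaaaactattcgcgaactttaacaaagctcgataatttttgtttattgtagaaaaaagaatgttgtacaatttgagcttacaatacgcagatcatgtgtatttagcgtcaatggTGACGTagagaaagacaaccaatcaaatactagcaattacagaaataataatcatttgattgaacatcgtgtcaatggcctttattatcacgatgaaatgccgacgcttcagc

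The stretches differ in how their A and T bases are arranged. The divergent stretch at ssd2 is 71.7% AT with 4 runs, the longest of 9 bases, and the convergent one at SPAC750.01 is 70.0% AT with 3 runs of 6 bases. The stretch at SPAC56F8.12 is 61.7% AT. Its first 221 bases are coding sequence and hold no such run, and the only run, of 8 bases, lies in the 79 bases beyond it. The stretch at the proline tRNA gene is 67.7% AT, with its 3 runs in the flanks. The TF-overlapping stretch near hry1 is 68.3% AT. Its Orc1 peak had a fold of 3.66, beside an Atf1 peak of fold 4.79 and a Pcr1 peak of fold 4.40.

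The TF-free Orc1 peaks had a lower median fold and a smaller median width than the TF-overlapping ones. Their Orc1 fold, the authors' enrichment over control at a peak, ranged from 1.33 to 5.31 with a median of 2.12 and quartiles of 1.84 and 2.62. The TF-overlapping Orc1 peaks ranged from 1.30 to 6.54 with a median of 2.36 and quartiles of 1.92 and 3.03, and the median over all Orc1 peaks was 2.21. The ranges overlap almost entirely, and the middle values of the TF-free set lie somewhat lower. Of the TF-free Orc1 peaks 135 (14.0%) had a fold of at least 3, against 144 (25.7%) of the TF-overlapping ones and a background of 18.3% over all Orc1 peaks. A −log10 q of at least 10 was reached by 499 TF-free peaks (51.7%), against 372 TF-overlapping peaks (66.4%) and a background of 57.1% over all Orc1 peaks. The median width was 298 bp in the TF-free set and 359 bp in the TF-overlapping set. Since the choice used this list, nothing is read from these counts. In 75 TF-free and 34 TF-overlapping peaks the deposited summit offset leads beyond the interval, so a fold and q may belong to a peak wider than the interval given here.

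**Figure D1:**
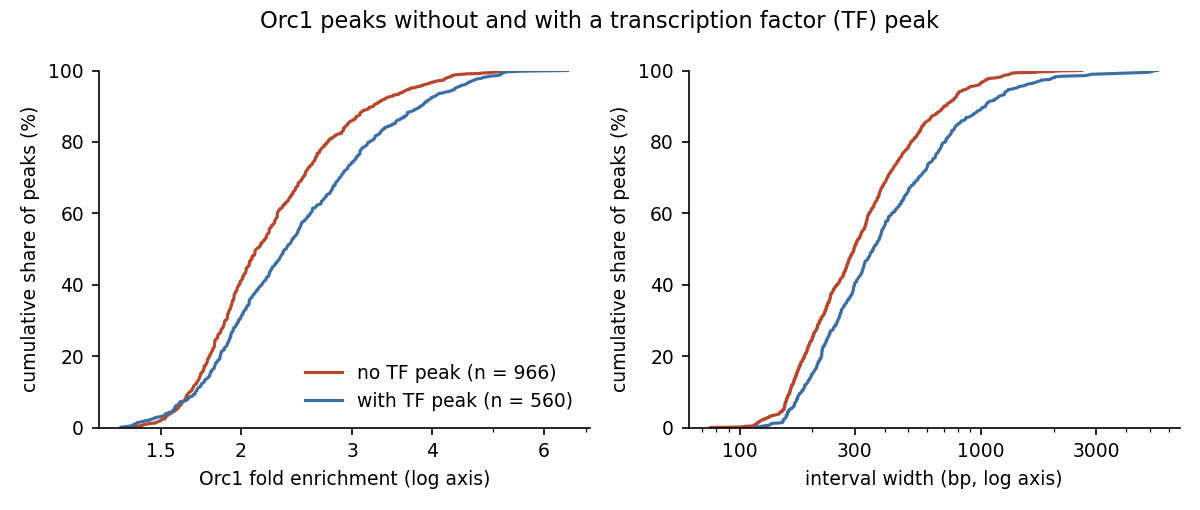
Cumulative share of TF-free (n = 966) and TF-overlapping (n = 560) Orc1 peaks by Orc1 fold (left) and interval width in bp (right), both on log axes. The TF-free curve lies to the left in both panels over most of the range, with medians of 2.12 against 2.36 for fold and 298 against 359 bp for width, and the 2 curves span nearly the same values.

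A wider interval has more room to meet another peak, so the share of TF-free peaks was read along fold and along width. Over quartiles of Orc1 fold, low to high, 69.3%, 68.6%, 66.1% and 49.2% of the Orc1 peaks were TF-free. Over quartiles of width the shares were 73.2%, 63.6%, 64.3% and 52.1%. By fold the step down lies at the top quartile, and by width there is a step after the narrowest quartile and another at the widest. In the top quartile peaks had a median fold of 3.28 in the division by fold and a median width of 736 bp in the division by width. Within the quartiles of width, the median fold of the TF-free peaks was 1.87, 2.04, 2.33 and 2.84, against 1.90, 2.13, 2.49 and 2.97 for the TF-overlapping peaks. The TF-free median was the lower one in each quartile of width, by less than over the whole list. Fold and width come from the lists that the choice used, so this is a description. An effect of width was not tested. By the number of other lists overlapped, 0, 1, 2 or 3, the median Orc1 fold was 2.12, 2.18, 2.41 and 2.69.

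**Figure D2:**
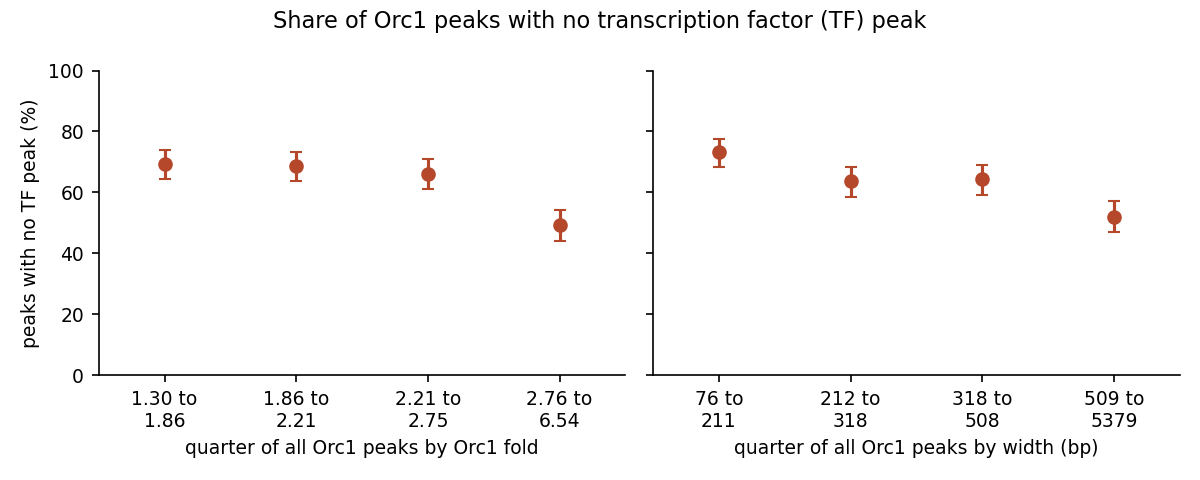
Percentage of Orc1 peaks that are TF-free in quartiles of Orc1 fold (left) and of interval width in bp (right), with exact 95% intervals as bars. The share is lowest in the top quartile of each, at 49.2% by fold and 52.1% by width, and 73.2% in the narrowest quartile.

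The distance from TF-free Orc1 peaks to the nearest transcription factor peak is given as a description, since the choice used these lists. The share of all bases that lie as near to such a peak is not given here, so no closeness is read from the counts. The gap from the edge of a TF-free peak to the nearest edge of an Atf1, Pcr1 or Deb1 peak had a median of 1247 bp and quartiles of 498 and 2744 bp. It was at most 250 bp for 120 members (12.4%) and at most 1000 bp for 412 members (42.7%). The nearest peak was one of Atf1 for 661 members, of Pcr1 for 238 and of Deb1 for 67, on lists of unequal length. The largest gap was 15958 bp, at a peak of fold 1.86 whose nearest protein-coding start is that of mug126. At the edge of the rule, the members with the smallest gaps stood 3, 4, 9, 18 and 23 bp from another peak, with Orc1 folds of 2.81, 2.24, 2.88, 2.37 and 1.89. The TF-overlapping peaks with the smallest overlaps shared 3, 9, 11, 19 and 24 bp, with Orc1 folds of 1.47, 1.49, 1.84, 1.90 and 2.46.

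TF-free Orc1 peaks occurred on all chromosomes at similar density. There were 411 on chromosome 1, 385 on chromosome 2 and 170 on chromosome 3, or 7.37, 8.46 and 6.93 per 100 kb. Neighbouring members were a median of 4448 bp apart from summit to summit, and 548 (56.7%) had another member within 2000 bp. In the first or last 50000 bp of a chromosome lay 116 of the 966 TF-free, 45 of the 560 TF-overlapping and 161 of all 1526 Orc1 peaks. The share of bases in these ends is not given here. Gene positions and sequence were used where the coordinates of the lists and of the reference match, that is on all of chromosomes 1 and 3 and up to position 2110000 of chromosome 2. This is called the annotated part. It holds 767 TF-free and 452 TF-overlapping Orc1 peaks. The other 199 TF-free peaks, on chromosome 2 from 2110000 on, had a median fold of 2.04 and are given without genes.

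TF-free Orc1 peaks sat mostly between genes. For this count a gap is the stretch between the coding sequences of neighbouring protein-coding genes, untranslated regions included, and is called convergent when both neighbours are transcribed into it, divergent when both are transcribed away from it and tandem when they point the same way. Of 767 TF-free summits 293 (38.2%) lay in tandem gaps, 244 (31.8%) in divergent gaps and 77 (10.0%) in convergent gaps. These gaps make up 19.8%, 14.0% and 5.90% of the bases. The TF-overlapping summits fell into them at 46.9%, 27.0% and 10.2%. Coding sequence held 149 TF-free summits (19.4%, interval 16.7% to 22.4%), against 66 TF-overlapping summits (14.6%, interval 11.5% to 18.2%), and makes up 56.5% of the bases. The TF-free share was 11.4% among peaks of −log10 q at least 10 and 8.11% among peaks of fold at least 3. Introns held 3 TF-free summits and 1 TF-overlapping summit. Each kind of gap was thus held more often than its share of the bases in both sets. The intervals of the 2 sets overlapped for coding sequence, convergent gaps and divergent gaps and stood apart by less than 1 percentage point for tandem gaps, at 34.8% to 41.7% in the TF-free set and 42.2% to 51.6% in the TF-overlapping set.

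**Figure D3:**
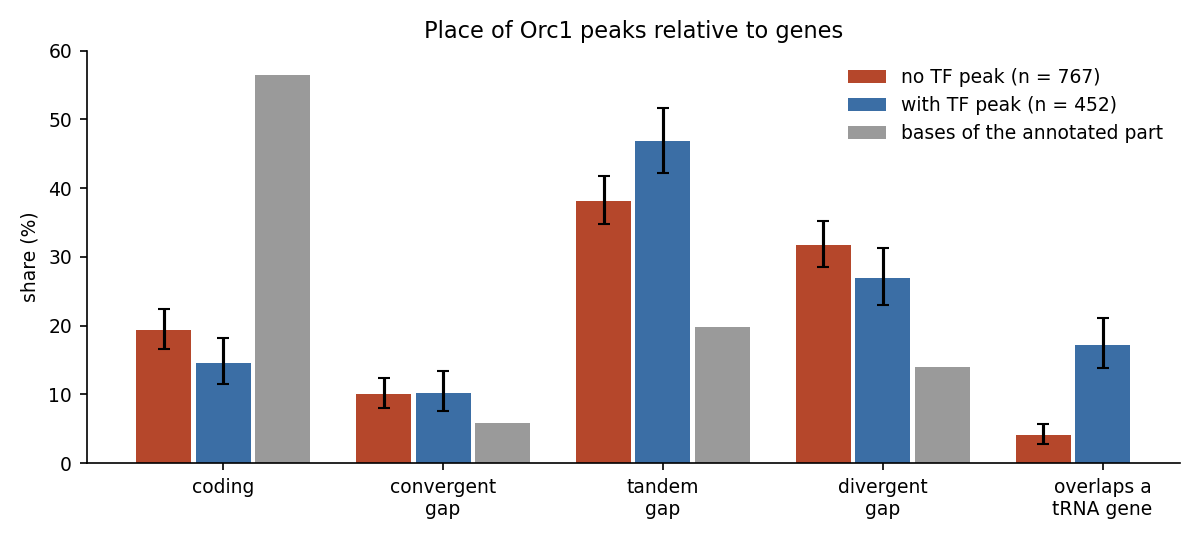
Share of TF-free (n = 767) and TF-overlapping (n = 452) Orc1 peaks of the annotated part by place, with exact 95% intervals, beside the share of bases (grey; not drawn for tRNA genes). Both sets are below the 56.5% of bases in coding sequence and above the bases in every kind of gap, and 4.04% of the TF-free peaks against 17.3% of the TF-overlapping peaks overlap a tRNA gene.

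Among summits in gaps, the division by kind lay near that of the gap bases, with divergent gaps somewhat above it in the TF-free set. The TF-free gap summits were 12.5% convergent, 47.7% tandem and 39.7% divergent (interval 35.8% to 43.7%), and the gap bases were 14.9%, 49.9% and 35.3%. The TF-overlapping gap summits were 12.1% convergent, 55.8% tandem (interval 50.6% to 60.85%) and 32.1% divergent. A promoter window, the 1000 bp before and the 200 bp after an annotated protein-coding start, held 51.2% of TF-free summits, 53.3% of TF-overlapping summits and 40.01% of all bases. The median position of a TF-free summit was 49.7% of the way along convergent gaps (quartiles 30.6% and 66.9%), 45.9% along tandem gaps (27.5% and 68.0%) and 51.8% along divergent gaps (30.2% and 70.6%). The nearest coding sequence was a median of 385 bp away in convergent, 549 bp in tandem and 583 bp in divergent gaps.

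Non-coding genes, and tRNA genes among them, took a smaller share of the TF-free than of the TF-overlapping Orc1 peaks. A non-coding gene, most often a long non-coding RNA gene, held 415 TF-free summits (54.1%), against 286 TF-overlapping summits (63.3%), and such genes cover 47.7% of the bases. Within gaps the shares were 55.7% in the TF-free set and 67.4% in the TF-overlapping set, with 46.7% of gap bases. A tRNA gene was overlapped by 31 TF-free peaks (4.04%, interval 2.76% to 5.69%), against 78 TF-overlapping peaks (17.3%, interval 13.9% to 21.1%) and 8.94% of all Orc1 peaks. The TF-free share was 7.28% among peaks of −log10 q at least 10 and 11.7% among peaks of fold at least 3. Of the 155 tRNA genes of the annotated part, 31 were touched by a TF-free Orc1 peak and 102 by a TF-overlapping one. The TF-free peaks at tRNA genes had a median fold of 2.88, against 3.00 for the TF-overlapping peaks at such genes. An rRNA gene was overlapped by 15 TF-free (1.96%) and 16 TF-overlapping peaks (3.54%), against 2.54% of all Orc1 peaks. A long terminal repeat, the end of a retrotransposon, was overlapped by 9 TF-free (1.17%) and 20 TF-overlapping peaks (4.43%), against 2.38% of all Orc1 peaks. Reads from near-identical copies of such repeats can be placed at more than 1 copy, and the sources used here do not say how the authors placed them.

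Gap length went with the presence of a TF-free Orc1 summit across its whole range. The gap around a TF-free gap summit had a median length of 2132 bp, against 2270 bp for a TF-overlapping one. The median of all 4092 gaps was 703 bp, and a base picked evenly from all gaps lies in a gap of median length 1333 bp. A TF-free summit was found in 1.53% of the gaps of up to 500 bp, 4.65% of those of 501 to 1000 bp, 16.9% of those of 1001 to 2000 bp, 43.7% of those of 2001 to 4000 bp and 69.5% of the longer ones. For TF-overlapping summits these shares were 0.437%, 1.89%, 12.8%, 32.4% and 71.2%. A longer gap offers more bases to either kind of summit, and this was not separated from length itself.

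**Figure D4:**
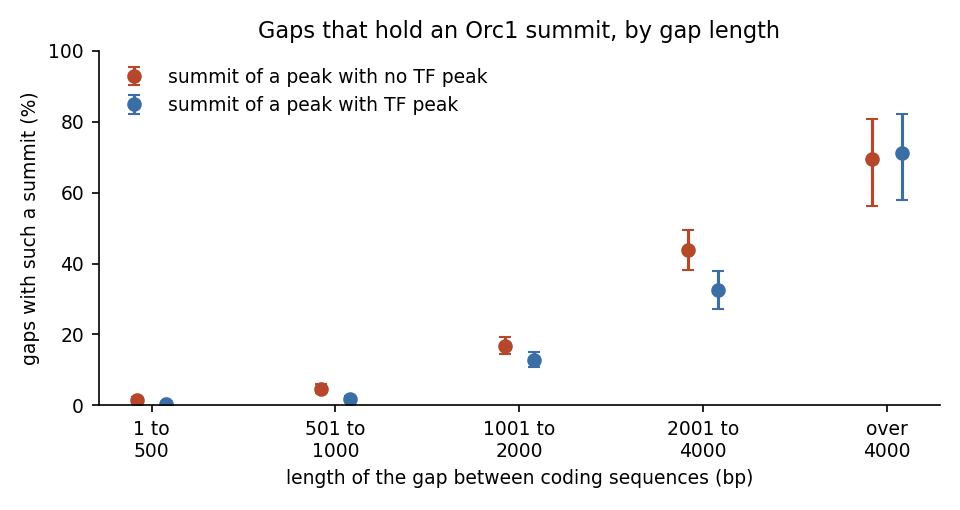
Percentage of gaps that hold at least 1 TF-free Orc1 summit, or at least 1 TF-overlapping summit, by the length of the gap in bp, with exact 95% intervals. Both shares go up with each step of length, to 69.5% for TF-free and 71.2% for TF-overlapping summits in gaps over 4000 bp.

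Some TF-free gap summits had a transcription factor summit elsewhere in the same gap. The share of all gaps with such a summit is not given here, and gap length was not separated from this count. Of the 614 TF-free gap summits, 294 (47.9%) shared the gap with an Atf1, Pcr1 or Deb1 summit, in 181 gaps of median length 3250 bp over these summits. The other 320 (52.1%) stood in 247 gaps with no such summit, of median length 1445 bp. The median Orc1 fold was 2.28 where a transcription factor summit shared the gap and 2.27 where none did, and the AT content was 68.5% ± 3.84 and 68.8% ± 3.27 (SD). TF-free and TF-overlapping Orc1 summits occurred together in 109 gaps.

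Several gaps held a series of TF-free Orc1 peaks. The 3 longest gaps, which hold the centromeres, are per1 to emc5 on chromosome 1 (39533 bp, 21 TF-free summits), meu27 to ppc1 on chromosome 3 (78895 bp, 20) and rpb1 to yox1 on chromosome 2 (51524 bp, 14). Beside them these gaps held 6, 14 and 9 TF-overlapping Orc1 summits, and they contain 7, 21 and 27 tRNA genes. Centromeres of this yeast are built of repeats, so a peak there may stand for reads of several copies. Outside them, the gaps SPBC1348.06C to SPBC1348.07 and grt1 to SPBPB8B6.05C held 5 TF-free summits each, both near the left end of chromosome 2. The gap of 4099 bp between pfl3, of the flocculin family, and naa38 held 4, as did the gap of 2713 bp between hry1 and sul2.

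The 9 strongest TF-free Orc1 peaks of the annotated part all lay in gaps, of 2437 to 5448 bp. The highest and the next highest of them stood side by side upstream of amt1, an ammonium transporter gene, in the gap of 4024 bp that begins at wtf21, a member of the wtf family of spore killers. The first had an Orc1 fold of 5.31 at chr3:2066716-2067511 with its summit at -1539 bp from the annotated start of amt1 (SPCPB1C11.01), where minus means upstream, and the other 5.22 at chr3:2067607-2068363 with its summit at -981 bp. They ranked 3 and 6 among all Orc1 peaks, and the nearest transcription factor peak, one of Pcr1, stood 998 and 146 bp away.

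The next strongest peaks lay in gaps of every kind. A divergent gap of 2860 bp between mfs3 and cys11, a cysteine synthase gene, held a narrow peak of 258 bp with a fold of 5.16 at chr2:847211-847468, whose nearest transcription factor peak was one of Deb1 102 bp away. The tandem gap of 5448 bp between isp4, an oligopeptide transporter gene, and the ribosomal protein gene rpl26 held a peak of fold 5.04 at chr2:1555240-1556562. The convergent gap of 3420 bp between SPAC750.01 and SPAC750.02C, near the right end of chromosome 1, held a peak of fold 4.97 and 1339 bp width, with the nearest transcription factor peak 1644 bp away. A peak of fold 4.93 at chr3:2307988-2308458 overlay the rRNA gene SPRRNA.07 downstream of dpe2. The divergent gap between fap2 and ssd2 held one of fold 4.79, and the convergent gaps hgh1 to SPAC26F1.11 and alr2 to aat1 held ones of fold 4.76 and 4.55; aat1 encodes an amino acid transporter. Of the 12 strongest TF-free peaks, the remaining 3 lay on chromosome 2 beyond the annotated part, with folds of 5.26, 4.48 and 4.40.

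Some strong TF-free peaks stood far from any transcription factor peak. The divergent gap of 1465 bp between sxa2, whose carboxypeptidase degrades the mating pheromone P-factor, and mug65 held a peak of fold 4.28, with its summit at -63 bp from the start of sxa2 and the nearest transcription factor peak 8958 bp away. Upstream of ctr5, a copper transporter gene, a peak of fold 4.26 overlay the rRNA gene SPRRNA.16, 7826 bp from the nearest transcription factor peak. The divergent gap between pan3 and bsu1, a vitamin B6 transporter gene, held a peak of fold 4.18 with 75.1% AT at its summit and 4474 bp to the nearest transcription factor peak. Between gcn1, an activator of the kinase Gcn2, and utp11, a peak of fold 4.23 was likewise 75.1% AT.

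The strongest TF-free peaks in coding sequence were weaker than those in gaps. They had folds of 4.19 in SPAC56F8.12, 4.04 in SPBC36.02C, 3.63 in SPCC13B11.03C and 3.55 in tif310. At their summits the AT content was 61.8%, 62.5%, 63.1% and 62.1%, all below the 67.5% mean over TF-free summits. Beside the proline tRNA gene SPATRNAPRO.01, the strongest TF-free peaks at tRNA genes had folds of 4.18 at the phenylalanine gene SPATRNAPHE.02, 3.99 at the valine gene SPBTRNAVAL.07 and 3.96 at the cysteine gene SPATRNACYS.01. The first pair of these lies in the gaps of chromosomes 1 and 2 that hold the centromeres. The peak of the proline tRNA gene had a fold of 4.33. At long terminal repeats the folds were 3.55 beside SPAC56F8.12, 3.33 between tif310 and cam1, a calmodulin gene, 2.45 in SPBC1348.01 and 2.37 near ssp2, the catalytic subunit of the AMP-activated kinase.

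DNA at TF-free Orc1 summits was AT-rich. Within 150 bp of the summit the AT content averaged 67.5% ± 4.46 (SD, n = 767 peaks), against 64.1% ± 5.78 (n = 452) at TF-overlapping summits, and 63.9% ± 5.39 over all windows of that length. The difference of 3.36 percentage points between the sets is smaller than the spread among peaks in either. In gaps alone the values were 68.6% ± 3.56 (n = 614) for TF-free and 65.2% ± 4.98 (n = 380) for TF-overlapping summits, with 68.0% ± 4.29 over all gap windows. In coding sequence they were 62.8% ± 4.72 (n = 149) and 57.9% ± 6.08 (n = 66). Leaving out peaks at tRNA genes and long terminal repeats gave 68.6% ± 3.61 (n = 576) for TF-free and 64.8% ± 5.42 (n = 283) for TF-overlapping gap summits. Set against the AT content of their own gap, TF-free gap summits averaged -0.53 points and TF-overlapping ones -2.75 points.

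The summit itself was a local low in AT content within a rise. In windows of 51 bp, TF-free summits were 63.5% AT, flanked by 70.9% at 150 bp on either side, and the profile came down to 64.0% to 64.8% beyond 1000 bp. TF-overlapping summits were 58.9% AT, flanked by 68.9% at 150 bp to the left and 68.1% at 300 bp to the right, and 63.4% to 64.7% beyond 1000 bp. The standard errors over peaks were 0.284 to 0.354 points in the TF-free profile and 0.411 to 0.502 points in the TF-overlapping one. Both sets showed the low and the flanks, and the TF-free profile lay higher at the summit and on the flanks. Within 50 bp of the summit, TF-free gap summits were 65.5% AT and TF-overlapping ones 61.0%, both below the 68.4% of gap windows. Within 250 bp they were 69.6% and 66.5%, against 67.5% of gap windows. Within 500 bp they were 69.27% and 67.15%, both above the 66.53% of gap windows. Gap length was not separated from these values.

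**Figure D5:**
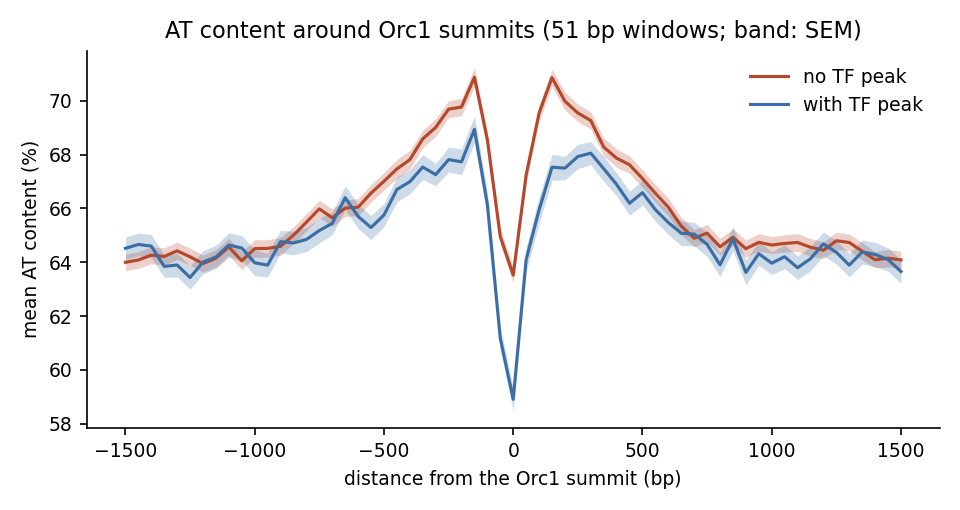
Mean AT content in windows of 51 bp against distance from the Orc1 summit in bp, for TF-free and TF-overlapping Orc1 peaks of the annotated part, with the standard error over peaks as a band. The TF-free line reaches 70.9% at 150 bp on either side of a low of 63.5% at the summit, and the low of the TF-overlapping line is 58.9%.

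Among TF-free peaks, the share in coding sequence went down and the AT content went up with Orc1 fold. Over quartiles of fold among the TF-free peaks, low to high, the AT content averaged 64.8%, 67.6%, 68.5% and 69.0%, with SDs of 3.37 to 5.22. The share in coding sequence was 38.2% (interval 31.3% to 45.5%), 21.4%, 10.9% and 7.29% (interval 4.04% to 11.9%). The share with a run of at least 6 A or 6 T within 100 bp of the summit was 48.2%, 55.2%, 62.0% and 66.1%. Since coding sequence is poorer in AT, these series move together and were not separated. The length of the surrounding gap hardly moved, with medians of 1889, 2046, 2184 and 2195 bp.

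Within 100 bp, runs of A or T were about as common at TF-free gap summits as in gap windows, and within 50 bp they were rarer. A run of at least 6 A or 6 T stood within 100 bp of 444 TF-free summits (57.9%, interval 54.3% to 61.4%), against 230 TF-overlapping summits (50.9%, interval 46.2% to 55.6%). All windows of that length held it at 42.8% and gap windows at 58.3%. At gap summits the shares were 61.7% for TF-free and 55.8% for TF-overlapping peaks. Within 50 bp of gap summits they were 32.1% (interval 28.4% to 35.94%) and 27.6%, against 36.25% of gap windows. Longer runs within 100 bp were again at a larger share of TF-free than of TF-overlapping summits, with intervals that overlap. Runs of at least 10 stood at 7.04% and 5.09% of all summits, against 3.32% of all windows. At gap summits they stood at 8.14% and 5.53%, against 6.98% of gap windows. For runs of at least 8 the shares at gap summits were 19.2% and 14.7%, both below the 20.3% of gap windows. The longest run within 100 bp had a median of 6 bases in both sets.

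The ATF/CRE core was found at few TF-free summits. Its letters TGACGT, read on both strands, stood within 100 bp of 14 TF-free summits (1.83%, interval 1.00% to 3.04%), against 35 TF-overlapping summits (7.74%, interval 5.45% to 10.6%). All windows of that length held it at 3.15%, just above the upper end of the TF-free interval, and gap windows at 3.03%, just within it. At TF-free gap summits the share was 1.95%, with an interval of 1.01% to 3.39% that includes the value of gap windows. The choice by Atf1 and Pcr1 peaks bears on this count, and it is given as a description. The strongest TF-free peak with the core had a fold of 2.97, in the gap between mek1, a meiotic checkpoint kinase gene, and SPAC14C4.04, 545 bp from a Pcr1 peak. The next lay between abo2 and nrk1 with a fold of 2.44 and 4814 bp to the nearest Atf1 peak. The word GGTAACA, chosen earlier on Deb1 peaks of these lists, stood within 50 bp of 3 TF-free summits (0.391%), 7 TF-overlapping summits (1.55%) and 0.981% of all windows, read on both strands.

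Genes grouped by function were read against the count over all genes. Of all 4090 protein-coding genes of the annotated part, 420 (10.3%) had a TF-free summit in this promoter window. Of the 14 genes in the list of flocculins, glucanases and glucan synthases, 7 had one. They were gsf2, a galactose-specific flocculin (Orc1 fold 3.05), pfl3 (2.89), pfl9 (2.26), the glucan synthase genes bgs4 (2.22), bgs3 and bgs2, and pfl7. No glucanase gene was among the 7. The upstream gaps of this list had a median length of 2917 bp, against 892 bp for all genes, and of all 532 genes with an upstream gap of at least 2000 bp 23.9% had a TF-free summit. The exact interval of the list's share, 23.0% to 77.0%, includes that value.

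The other lists had 1 to 3 genes each with a TF-free summit. Of 19 replication initiation genes, orc4 had a TF-free summit, with a fold of 1.77 and at -6 bp from its start. Of 13 genes of the G1-S transition and replication checkpoint, rep2, a coactivator of the G1-S transcription factor, had one of fold 2.42. Of 16 transport genes, amt1 had one of fold 5.22 and the hexose transporter family gene ght3 one of fold 1.91. Of 17 genes of mating and meiosis entry, ste4 (2.40), the pheromone-response kinase gene spk1 (1.88) and the M-factor gene mfm2 (1.83) had one. Of 8 histone genes the H4 gene hhf2 had one of fold 2.02, and of 13 stress response genes pcr1 had one of fold 1.69. These lists were chosen with earlier results of these data known.

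Around the ura4 locus, 5 TF-free and 2 TF-overlapping Orc1 peaks lay within 10000 bp. The TF-free folds were 2.33 between mug135 and tam14, 2.48 between new25 and pmp20, 1.68 in SPCC330.07C and 2.88 and 3.25 in the divergent gap between SPCC330.07C and alg11. The TF-overlapping folds were 1.70 in pmp20 and 3.33 between pmp20 and SPCC330.07C. The allele ura4-D18 removes the ura4 gene in all strains, and the Atf1 and Pcr1 strains carry a ura4 copy in the mating-type region.

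The mating-type region of chromosome 2, taken as chr2:2114219-2150579 in the coordinates of the lists, held 8 TF-free and 11 TF-overlapping Orc1 peaks. The highest TF-free folds were 2.82, 2.71 and 2.28, and the highest TF-overlapping fold was also 2.82. In 7 of the 8 TF-free peaks fold and q were equal, to 5 decimals, to those of another Orc1 record, as in 297 of the 966 members. The labels give cenH as replaced in the Atf1 and Pcr1 strains and name no such change in the Orc1 strain. The absence of an Atf1 or Pcr1 peak at cenH therefore says nothing of the Orc1 strain.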

How the data were processed

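Each deposited peak has a score, a ratio (its fold enrichment over control), a −log10 q-value and a summit offset. These are the authors' own values, and they serve here to describe and filter peaks of the same list. Tools named in the submitters' processing notes are bedtools, Bowtie 1.2.3 and MACS2 2.1.2; settings, genome build and depth per sample are not given in the sources used here. Replicates have 1 list per protein, so no error between samples can be given. For 75 of the 966 members the offset leads beyond the interval, and its midpoint stood in for the summit. Labels group samples by their titles. Members, gene lists and the rule for names (the 12 strongest members, the 4 strongest per kind of place and per gene list, the members next to ura4 and in the mating-type region) were chosen with earlier results of these data known. Named beyond it, after values were seen, are gaps with several members, strong members with no transcription factor summit in their gap and the 2 strongest members with the core.

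Computed from the lists were interval overlaps of at least 1 bp, and positions and sequence from RefSeq (assembly ASM294v3), with Python 3.11.15, NumPy 2.4.6, pandas 2.3.3, SciPy 1.17.1 and Matplotlib 3.10.9. Overlap and place functions were tested on simulated intervals. Chromosome 2 is 4539804 bp long in that assembly, while peaks run to 4551989. The ATF/CRE core lay within 40 bp of 19.9%, 20.4% and 20.1% of the summits that Atf1 and Pcr1 peaks of fold 2.5 or more have on chromosome 1, chromosome 2 left of 2110000 and chromosome 3, against at most 3.56% at 40 other shifts, and of 1.24% on the right of chromosome 2, which was left out of every count that uses genes or sequence. Background windows did not overlap each other. Of the symbols in the lists, vba2 did not match. Every 95% interval of a share is an exact Clopper-Pearson interval, for counting error alone. The sequence of the strongest member in a tandem gap is not reported here.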

Additional observations from a re-analysis of the deposited data

How the results depend on the processing

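Of 81 alternative values, 60 stayed within 1.5 times a count, within the interval of a share or within 1 SD of a mean, median or difference. That SD is the one among single peaks. For the AT content of TF-free peaks it is 4.46 points, more than the difference of 3.36 points between the sets. A value within it can thus still have shifted, and the count of 60 is no measure of how stable means, medians and differences are. The number of TF-free Orc1 peaks was 554 with gaps of up to 1000 bp counted as shared, 499 among peaks of −log10 q at least 10 and 135 among peaks of fold at least 3. With −log10 q of at least 10, coding summits were 11.4%, divergent gaps 39.3% and tRNA overlaps 7.28%. With fold of at least 3, coding summits were 8.11%, convergent gaps 7.21%, tandem gaps 47.8%, divergent gaps 36.9%, non-coding genes 66.7% and tRNA overlaps 11.7%. Without repeats, records of equal fold and q, and chromosome ends, tandem gaps were 34.6% and non-coding genes 58.2%; without gaps of at least 10000 bp, an alternative chosen after seeing the data, tandem gaps were 33.4%. Runs of 8 and 10 were at 17.5% and 7.04% of summits, runs of 6 within 50 bp at 29.9% and at gap summits at 61.7%. Runs of 8 were in 10.9% of all windows and 20.3% of gap windows. For runs of 6 within 50 bp these were 25.05% and 36.25%. The core within 250 bp was at 4.56%. AT content at TF-free gap summits minus gap windows was 0.67 points within 150 bp and -2.87 within 50 bp; the cause was not tested. TF-free minus TF-overlapping AT content was positive in each of the 8 alternatives. Leaving out each replicate could not be run, and no paired analysis was possible because each protein has 1 list and no result comes from a test. Depth per sample is unknown.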
